A study of Mus musculus with 12 samples.

Results

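Selenoproteins are proteins that carry selenocysteine, a selenium-containing amino acid read from a UGA codon that otherwise ends translation. The 9 selenoprotein genes described here (Selenos, Selenok, Selenof, Selenot, Selenow, Selenoh, Selenop, Gpx1 and Msrb1) were found by symbol among 22935 listed genes, and all 9 passed the count filter that left 14146 genes for testing. They were selected on their read counts across the 3 groups, seen in an earlier look at the same data, and not by a threshold. Their levels and changes are therefore given as a description, without a p-value, and nothing is read from the number of them that passed a threshold.

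The RNA came from BV2, a line of immortalised mouse microglia, in 3 groups of 3 libraries. Every group received 10 µM oxyhaemoglobin (oxy-Hb), the oxygenated blood pigment that lysed red cells release. The first group had oxy-Hb alone, the second oxy-Hb with C3a, the complement C3 fragment that binds the receptor C3aR, and the third oxy-Hb with 50 µM C3aRA (both additions in PBS), a name given in the labels in this short form. The label gives the C3a dose as 20 ug/ul, a unit that is uncertain, and states no exposure time. The 3 samples with PBS were not analysed here, and no value below is a response to oxy-Hb itself. The cells are 1 line grown in culture, and no label tells if each replicate was its own culture, so p-values measure the spread between libraries, which may be technical.

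Selenocysteine is inserted when a stem-loop in the 3' untranslated region of the mRNA, the SECIS element, recruits the binding protein Secisbp2 and the elongation factor Eefsec to the ribosome. Many selenoproteins are oxidoreductases with selenocysteine in the active site: glutathione peroxidases remove peroxides, methionine sulfoxide reductases repair oxidised methionine, and a group of small thioredoxin-like proteins sits in the endoplasmic reticulum (ER), cytosol or nucleus. In microglia, as in other macrophages, Gpx1 is known as an enzyme against hydrogen peroxide, and Selenok and Selenos as ER membrane proteins linked to calcium and inflammatory signalling and to protein quality control.

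The coding context of the selenocysteine codon is shown for each gene, since this codon defines the family and sets where ribosomes can stop early. Sequences are from GENCODE transcripts of build GRCm38, written 5′ to 3′ on the transcript strand, with up to 15 bases on each side and the selenocysteine TGA in capitals. For Selenop the first of 10 such codons is shown.
Selenos: ccatcatctggcggcTGAaactaa
Selenok: ccaatggctggtggaTGAggaaggtaa
Selenof: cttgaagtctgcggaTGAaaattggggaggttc
Selenot: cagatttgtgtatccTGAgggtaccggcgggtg
Selenow: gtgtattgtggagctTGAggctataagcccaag
Selenoh: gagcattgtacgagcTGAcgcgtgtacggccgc
Selenop: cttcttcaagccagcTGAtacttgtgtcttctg
Gpx1: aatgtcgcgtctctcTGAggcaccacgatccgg
Msrb1: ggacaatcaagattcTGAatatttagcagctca

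The position of the codon differed between members. In Selenos it was codon 189 of 190 (chr7:66088844-66088846, plus strand, in the last of 6 exons), so the printed run ends with the TAA stop. In Selenok it was codon 92 of 94 (chr14:29973440-29973442, plus strand, exon 4 of 5), 2 codons before the stop. These 2 ER membrane proteins were the members with the codon within 2 codons of the end. The selenocysteine codon was codon 13 of 88 in Selenow (chr7:15920464-15920466, minus strand), 38 of 116 in Selenoh (chr2:84670381-84670383, minus strand) and 49 of 195 in Selenot (chr3:58585238-58585240, plus strand). It was codon 93 of 162 in Selenof (chr3:144590645-144590647, plus strand), 47 of 201 in Gpx1 (chr9:108339451-108339453, plus strand, exon 1 of 2) and 95 of 116 in Msrb1 (chr17:24740158-24740160, plus strand, exon 3 of 4). Selenop, a secreted selenium carrier, had its first at codon 59 of 380 (chr15:3274848-3274850, plus strand, exon 2 of 5) and the last at codon 377. The base after the first TGA was G in 4 genes, A in 3, C in 1 and T in 1. The first TGA lay more than 55 bases before the last exon junction in 6 of 9 genes, a position at which an unread UGA can expose an mRNA to nonsense-mediated decay. The exceptions were Selenos, where it is in the last exon, Selenok (5 bases) and Msrb1 (34 bases).

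Library totals ran from 12934794 to 20479002 counts, and the 9 genes had 282 to 7797 counts per library. A count of 0 allows up to 3 counts, or 0.146 to 0.232 CPM (counts relative to the library total, on the usual CPM scale) over the libraries, for counting error only. CPM values other than this floor were scaled by TMM. All 13 microglia and macrophage markers were tested and summed to 2051 to 2244 CPM with oxy-Hb, 2308 to 2871 CPM with C3a and 2228 to 2362 CPM with C3aRA. The largest parts with oxy-Hb were Cd68, Ptprc and Fcer1g, at 848, 425 and 286 CPM on average. Tmem119, P2ry12, Aif1 and Cx3cr1 were low, at 2.05, 2.56, 1.80 and 7.01 CPM with oxy-Hb. Added over the 3 comparisons, the 13 microglia and macrophage markers had 2 calls. Their sum was above the oxy-Hb range in every C3a library and overlapped between C3a and C3aRA, and its part in the results below was not tested. Markers of other cells were low: 1 of 5 astrocyte markers had a row, at up to 0.709 CPM, 1 of 5 neuronal markers at up to 0.833, 1 of 6 endothelial or fibroblast markers at up to 1.66, and 2 of 6 red cell markers at up to 1.62 CPM in sum. Oligodendrocyte markers, 2 of 5 with a row, summed to 8.17 to 11.6 CPM, and no marker of another cell type was called. The endothelial marker with a row, Pecam1, stood at 0.106 to 0.691 CPM with oxy-Hb, 1.0 to 1.66 with C3a and 0.629 to 1.56 with C3aRA, so its C3a libraries were above its oxy-Hb libraries, and its part in the results was not tested. C3a replicate 2 stood apart from the other 8 libraries. It scored 76.3 on the first principal component (the other 8 from -23.8 to 10.8), its cytosolic ribosomal protein genes summed to 51143 against 29898 to 35733 CPM, and lincRNAs took 0.429% of its counts against 0.617% to 0.975%. The 9 selenoprotein genes summed to 1371 CPM there and to 816 to 1052 CPM in the other libraries, so log2 fold changes with C3a are also given without it.

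With oxy-Hb alone, levels per length differed by 12.8-fold between the highest and lowest of the 9 genes. Levels between genes are compared as CPM per kb of the annotated transcript, and values are mean ± SD over 3 libraries. Selenof, an ER-lumen partner of the glycoprotein folding sensor UGGT, was highest at 177 ± 13.3 CPM per kb. Gpx1, the cytosolic glutathione peroxidase, followed at 158 ± 9.96, and the libraries of these 2 genes overlapped. Selenoh, a nuclear thioredoxin-like protein, stood at 94.6 ± 8.19 and Selenot, an ER membrane oxidoreductase, at 51.2 ± 5.80 CPM per kb, each apart from its neighbours. Msrb1, which reduces the R form of methionine sulfoxide, and Selenok, a cofactor of the palmitoyltransferase Zdhhc6, overlapped within their spread at 39.8 ± 4.39 and 37.6 ± 3.52. Selenow, a small cytosolic thioredoxin-like protein, stood at 29.5 ± 4.07, with a highest library (34.2) just under the lowest of Selenok (34.8). Selenos, an ER membrane protein of the degradation pathway for misfolded proteins, had 19.2 ± 1.62 and Selenop 13.8 ± 0.491 CPM per kb. The 9 genes lay between the 62.9th percentile (Selenop) and the 97.6th (Selenof) of tested genes by level per length.

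The other selenoprotein genes lay within this range or below it. Of 15 listed, 12 had a row and 9 were tested. Gpx4, the phospholipid hydroperoxidase that guards against ferroptosis, had 119 ± 13.1 CPM per kb with oxy-Hb, and Txnrd1, cytosolic thioredoxin reductase, 64.7 ± 1.49. Sephs2, which makes the selenium donor and is itself a selenoprotein, had 24.4 ± 1.12. Selenom, of the ER lumen, stood at 15.6 ± 4.19 and Selenoi, an ethanolamine phosphotransferase, at 13.9 ± 0.608 CPM per kb. Selenon, an ER calcium-linked protein, had 9.91 ± 1.68, mitochondrial Txnrd2 7.96 ± 0.622, Selenoo 5.54 ± 0.961 and Txnrd3 3.30 ± 0.280 CPM per kb. Gpx3, Selenov and Dio1 did not exceed 0.377 CPM in any of the 9 libraries and were not tested.

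**Figure D1:**
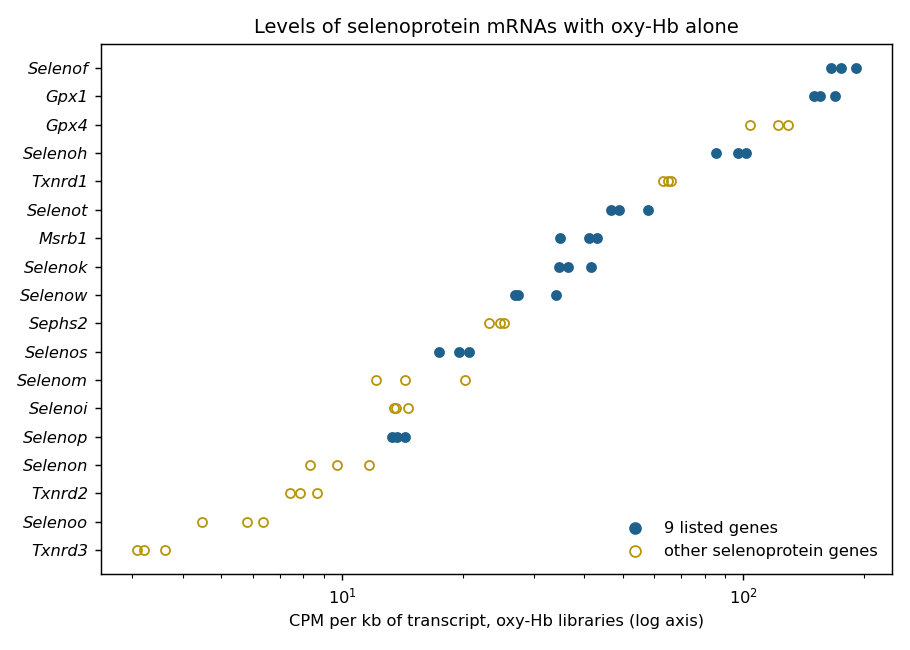
Level of each tested selenoprotein mRNA in the 3 oxy-Hb libraries (points), as CPM per kb of transcript on a log axis, with the 9 listed genes filled and the others open. Selenof and Gpx1 are highest, with Selenof at 177 and Selenop at 13.8 CPM per kb on average.

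Adding C3a to oxy-Hb asked how the receptor's ligand changes these transcripts. All 9 genes had a higher mean with C3a, with fitted fold changes from 1.18 (Msrb1) to 1.58 (Selenos). Of all tested genes, 50.2% had a log2 fold change above 0 in this comparison. For Selenos, Selenot, Selenoh and Gpx1 the 3 C3a libraries were all above the 3 oxy-Hb and the 3 C3aRA libraries. Groups were apart in this direction for 13.2% of all tested genes against oxy-Hb and for 14.1% against C3aRA. The share of all tested genes with C3a above both groups at once is not given here, so these 4 genes have no like background. In 8 of 9 genes C3a replicate 2 was the highest of the 9 libraries, as it was in 26.7% of all tested genes. In bulk RNA, a larger share of cells that express a gene and more of its RNA per cell cannot be told apart.

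Positions of genes are those of the tables, in GRCm38. Selenos and Selenok are the members of the pathway that degrades misfolded ER proteins. Selenos (ENSMUSG00000075701, chr7:66079649-66089405) stood at 23.3, 20.8 and 24.6 CPM with oxy-Hb, at 30.1, 45.7 and 32.3 with C3a and at 22.2, 21.6 and 19.7 with C3aRA (replicates 1 to 3, scaled by TMM as are all CPM values of single genes below). Its C3a libraries were clear of the others, with replicate 1 the lowest and replicate 2 the highest of them. The group means were 22.9 ± 1.93, 36.0 ± 8.42 and 21.2 ± 1.29 CPM (SD, n = 3), and the log2 fold change with C3a was 0.66 ± 0.16 (SE) against oxy-Hb and 0.77 ± 0.16 against C3aRA (0.44 and 0.56 without C3a replicate 2). Selenos and its neighbour in function Selenok both bind the Derlin channel and the ATPase p97. Selenok (ENSMUSG00000042682, chr14:29968308-29975662) stood at 58.4, 61.4 and 69.8 CPM with oxy-Hb, 63.3, 109 and 69.6 with C3a and 59.8, 64.6 and 64.5 with C3aRA. Only its C3a replicate 2 was outside the range of the oxy-Hb libraries, and its log2 fold change with C3a was 0.36 ± 0.17 against oxy-Hb and 0.36 ± 0.17 against C3aRA. Without C3a replicate 2 these were 0.07 and 0.07.

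Selenof and Selenot are the other members that reside in the ER. Selenof (ENSMUSG00000037072, chr3:144570304-144597680) stood at 249.9, 289.7 and 265 CPM with oxy-Hb, 282, 406 and 329 with C3a and 272, 288 and 267 with C3aRA. Its C3a replicate 1 lay inside the oxy-Hb range and the other C3a libraries above it, for a log2 fold change of 0.34 ± 0.12 against oxy-Hb and 0.30 ± 0.12 against C3aRA (0.18 and 0.14 without C3a replicate 2). Selenot (ENSMUSG00000075700, chr3:58576636-58593133) stood at 154, 148 and 182 CPM with oxy-Hb, 191, 197 and 206 with C3a and 147, 156 and 146 with C3aRA. It was the member in which C3a replicate 2 did not lead: its 3 C3a libraries were close together and all above the other 6. Its group means were 162 ± 18.3, 198 ± 7.95 and 149.8 ± 5.08 CPM, and its log2 fold change with C3a was 0.29 ± 0.10 against oxy-Hb and 0.40 ± 0.10 against C3aRA. Leaving out C3a replicate 2 left these at 0.29 and 0.40.

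The peroxide and methionine sulfoxide enzymes differed in how far the C3a libraries agreed. Gpx1 (ENSMUSG00000063856, chr9:108338903-108340343) stood at 160.5, 181 and 166 CPM with oxy-Hb, 199.8, 337 and 224 with C3a and 145, 173 and 169.7 with C3aRA. All of its C3a libraries were above the other 6, by the least in replicate 1, and the group means were 169 ± 10.7, 254 ± 73.4 and 162 ± 15.4 CPM. Its log2 fold change with C3a was 0.58 ± 0.16 against oxy-Hb and 0.64 ± 0.16 against C3aRA (0.32 and 0.38 without C3a replicate 2). Msrb1 (ENSMUSG00000075705, chr17:24736642-24742778) stood at 52.4, 50.0 and 42.2 CPM with oxy-Hb, 50.5, 77.6 and 42.4 with C3a and 53.5, 48.7 and 43.5 with C3aRA. Its C3a replicates 1 and 3 lay inside the oxy-Hb range, and replicate 2 was 1.67 times their mean. The log2 fold change of Msrb1 was 0.24 ± 0.19 against oxy-Hb and 0.23 ± 0.19 against C3aRA (-0.06 and -0.07 without C3a replicate 2).

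Selenoh and Selenow are thioredoxin-like proteins outside the ER, and Selenop is secreted. Selenoh (ENSMUSG00000076437, chr2:84669215-84670770) stood at 66.9, 75.7 and 79.4 CPM with oxy-Hb, 80.4, 118 and 91.5 with C3a and 72.9, 70.3 and 73.4 with C3aRA. Its lowest C3a library was just above its highest oxy-Hb library, and the log2 fold change was 0.39 ± 0.13 against oxy-Hb and 0.42 ± 0.13 against C3aRA (0.21 and 0.25 without C3a replicate 2). Selenow (ENSMUSG00000041571, chr7:15917208-15922402) stood at 19.8, 20.2 and 25.2 CPM with oxy-Hb, 21.2, 38.2 and 27.7 with C3a and 23.9, 24.7 and 24.6 with C3aRA. Its groups overlapped, and the log2 fold change was 0.42 ± 0.18 against oxy-Hb and 0.25 ± 0.18 against C3aRA (0.17 and -0.00 without C3a replicate 2). Selenop (ENSMUSG00000064373, chr15:3268547-3280508) stood at 29.9, 27.8 and 28.6 CPM with oxy-Hb, 32.1, 41.8 and 29.2 with C3a and 32.7, 23.8 and 32.4 with C3aRA. Its C3a replicate 3 lay inside the oxy-Hb range and its log2 fold change was 0.26 ± 0.16 against oxy-Hb and 0.21 ± 0.16 against C3aRA (0.09 and 0.04 without C3a replicate 2). The Selenop exons share 439 bases with the antisense gene Ccdc152, which had at most 9 counts in a library, and 3 listed pseudogenes of Selenok had at most 14.

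**Figure D2:**
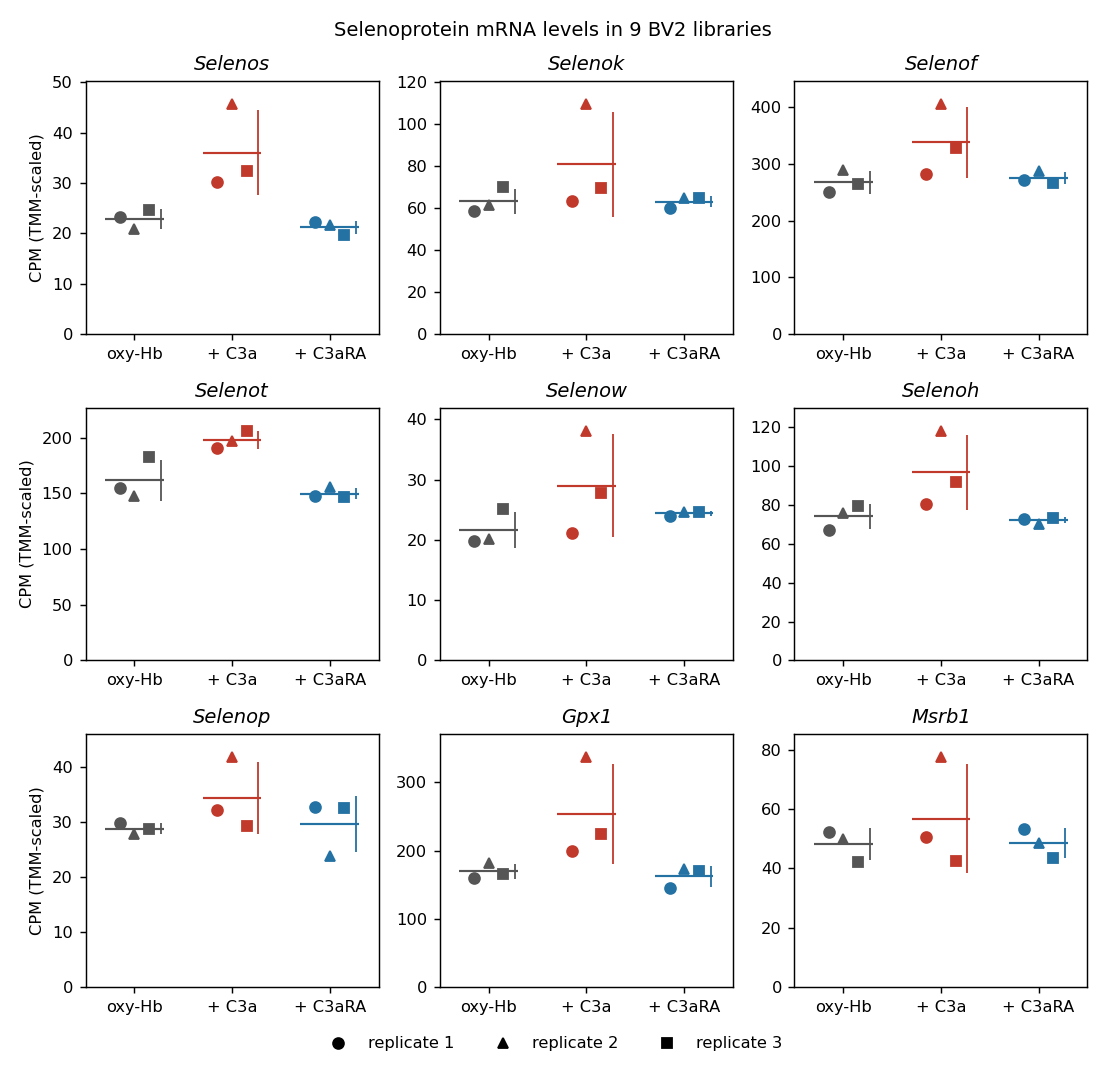
TMM-scaled CPM of the 9 selenoprotein genes in each library (marker shape gives the replicate, horizontal lines the group mean, vertical lines the SD, n = 3), each panel starting at 0. C3a replicate 2 is the highest point for 8 of 9 genes, and for Selenos, Selenot, Selenoh and Gpx1 all 3 C3a points lie above the other 6.

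The 9 genes were chosen on these same counts, so the calls given here describe them and test nothing. Of the 9 genes 1, Selenos, was called higher with C3a against oxy-Hb by edgeR's quasi-likelihood test (adjusted p below 0.05), beside 0.905% of all tested genes called higher, 3.04% called lower and 3.94% called in either direction. Falls made up 77.1% of the latter, and 95.1% with total count scaling. The median log2 fold change of the 9 genes was 0.36, beside 0.00 over all tested genes. On leaving out C3a replicate 2 the median was 0.18 and single values ran from -0.06 (Msrb1) to 0.44 (Selenos), with 8 of 9 above 0. Selenos, Selenot (0.29) and Gpx1 (0.32) were called higher in that fit, beside 4% of genes called higher and 9.55% in either direction in it. The Selenos call was lost without oxy-Hb replicates 1, 2 or 3 (0.67, 0.59 and 0.72) and without C3aRA replicates 1, 2 or 3 (0.65, 0.65 and 0.67). Over all genes, 0, 3 and 40 were called higher without oxy-Hb replicates 1, 2 and 3. Without C3aRA replicates 1, 2 and 3 it was 20, 17 and 28, against 128 in the fit of 9 libraries. Without C3a replicate 1, 5 of the 9 were called, beside 1638 of 14610 genes (11.2%), 747 of them higher. In the authors' deposited table for this comparison 2 of the 9, Selenos and Gpx1, had an adjusted p below 0.05, beside 2.21% of the listed genes, and all 9 were higher with C3a.

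The members were mostly short transcripts. The median transcript of the 9 genes was 1211 bases long against 2621.5 bases over tested genes, and 8 of 9 were shorter than the latter, with Selenot (3157 bases) the exception. The ratio of C3a replicate 2 to the mean of C3a replicates 1 and 3 had a median of 1.46 over the 9 genes and 0.979 over all tested genes, and was 0.993 for Selenot. After a correction for length and GC content in each library the median log2 fold change with C3a against oxy-Hb was 0.24, and 0.23 against C3aRA. Against oxy-Hb, Selenok, Selenof and Selenop then stood at 0.18, 0.15 and 0.09, Selenos at 0.48 and Gpx1 at 0.58. With that correction and without C3a replicate 2 the median against oxy-Hb was 0.16. In this comparison Selenok, Selenop and Msrb1 were the genes whose sign turned in at least 1 of 22 alternative settings. Against C3aRA, Selenok, Selenow, Selenop and Msrb1 turned sign in at least 1 of 22.

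Adding C3aRA to oxy-Hb left the groups of all 9 genes overlapping, where 11.9% of all tested genes were apart as higher and 11% as lower. This comparison shares its oxy-Hb libraries with the one above. Log2 fold changes ran from -0.11 (Selenos and Selenot) to 0.17 (Selenow), with standard errors of 0.10 to 0.19. Gpx1 had -0.06 ± 0.16, Selenof 0.04 ± 0.12, Selenoh -0.04 ± 0.13, Selenop 0.04 ± 0.16 and Msrb1 0.01 ± 0.19. The median of the 9 was -0.00, beside -0.01 over all tested genes, and 4 of 9 were above 0, as were 48.0% of all tested genes. The edgeR test called 0 of 14146 genes (0%) in this comparison, with 1153 at an unadjusted p below 0.05, 19 calls with DESeq2 and 0 with limma-voom. C3a replicate 2 is in neither of these groups but enters the shared estimate of the spread, and on leaving it out 0 of the 9 were called, beside 3.25% of genes in either direction and 1.88% higher. By the authors' deposited table, none (0) of the 9 had an adjusted p below 0.05, beside 3.12% of the listed genes.

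Set directly against C3aRA, C3a gave higher means for all 9 genes, where 50.7% of all tested genes had a log2 fold change above 0. The C3a libraries of Selenos, Selenot, Selenoh and Gpx1 were again above those compared (14.1% of all tested genes were apart in this direction). Fitted fold changes were 1.70 for Selenos, 1.56 for Gpx1, 1.34 for Selenoh, 1.32 for Selenot, 1.28 for Selenok, 1.23 for Selenof, 1.19 for Selenow, 1.17 for Msrb1 and 1.16 for Selenop. In edgeR 3 of 9 were called higher (Selenos, Gpx1 and Selenot), beside 2.87% of all tested genes called higher, 3.32% lower and 6.19% in either direction. As the 9 were chosen on these counts, this too is a description and no test. The median log2 fold change was 0.36, and 0.01 over all tested genes. Without C3a replicate 2 the median was 0.14, the same 3 genes were called at 0.56 (Selenos), 0.38 (Gpx1) and 0.40 (Selenot), beside 5.97% of genes called higher and 12.5% in either direction, and Selenow (-0.00) and Msrb1 (-0.07) were not above 0. No member was called without C3aRA replicate 1, 2 or 3, where 53, 175 and 149 genes were called in all. The fit of 9 libraries called 876. Selenos alone was called without oxy-Hb replicate 1 or 2 (560 and 390 genes in all). Selenos and Selenot were called without oxy-Hb replicate 3 (575 genes in all), and Selenos and Gpx1 without C3a replicate 3 (420). Without C3a replicate 1, 5 of the members were called, beside 1670 of 14610 genes (11.4%). The Selenot call was also lost with total count scaling (0.37).

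**Figure D3:**
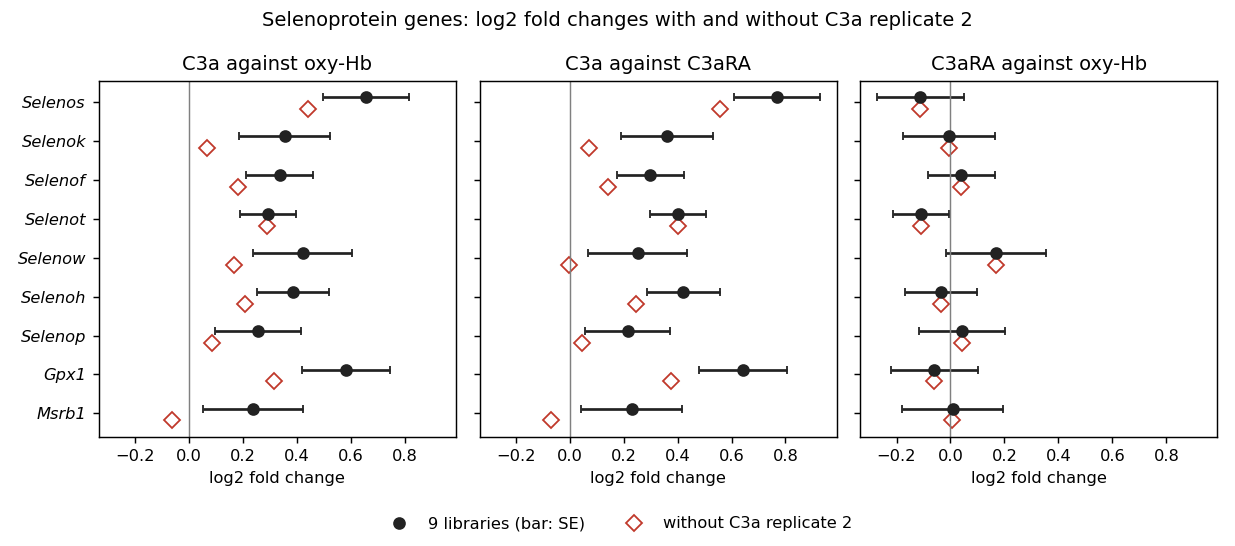
Log2 fold change of the 9 genes in the 3 comparisons from all 9 libraries (filled circles, bars are the SE) and without C3a replicate 2 (open diamonds). In both comparisons with C3a all circles lie right of 0 and most diamonds lie nearer to 0, with Selenot in the same place, while with C3aRA against oxy-Hb the circles run from -0.11 to 0.17.

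The remaining selenoproteins had values on both sides of 0. Of the 9 tested, 0 passed with C3a against oxy-Hb and their median log2 fold change was 0.04. The lowest p were those of Sephs2 (0.43 ± 0.13, edgeR adjusted p = 0.0726), Selenoo (-0.36 ± 0.19, adjusted p = 0.256) and Selenon (-0.25 ± 0.17, adjusted p = 0.361). With C3aRA against oxy-Hb 0 of 9 passed, with Txnrd1 (0.16, adjusted p = 0.699) and Selenoo (0.28, adjusted p = 0.731) lowest. Sephs2 was higher with C3a than with C3aRA (0.48 ± 0.13, adjusted p = 0.0412), at 50.5, 55.2 and 53.8 CPM with oxy-Hb, 59.2, 81.9 and 73.9 with C3a and 46.1, 54.1 and 53.6 with C3aRA. Its value was 0.37 without C3a replicate 2, and the call held in 2 of the 9 fits that each left out 1 library, those without C3a replicate 1 or 2. It was lost with total count scaling (0.45). Selenoo stood at -0.64 with C3a against C3aRA (adjusted p = 0.0574) and was called lower without C3a replicate 2 (-0.69, adjusted p = 0.0168). Gpx4 stood at 104, 185 and 109 CPM with C3a and 117, 124 and 99.8 with oxy-Hb, so that again replicate 2 alone was outside the range.

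The selenocysteine machinery makes the charged tRNA and reads the codon. Of 15 genes, all tested, 1 rose and 0 fell with C3a against oxy-Hb, with a list median of 0.13. The riser was Rpl30, a ribosomal protein that also binds SECIS elements (0.58 ± 0.15, adjusted p = 0.0476), at 89.6, 98.5 and 98.3 CPM with oxy-Hb and 115, 186 and 125 with C3a. It was 0.33 without C3a replicate 2, where it was also called, and it lost its call on leaving out any oxy-Hb library (0.53, 0.60 and 0.61) or any C3aRA library (0.57, 0.57 and 0.59), and with upper quartile or total count scaling (0.58 and 0.48). Ribosomal protein genes share reads with pseudogene copies, so its count is uncertain. Eif4a3, a helicase of the exon junction complex that limits some selenoprotein mRNAs (0.36 ± 0.10, adjusted p = 0.0661), and Ncl, nucleolin (0.25 ± 0.10, adjusted p = 0.161), were next. Secisbp2 (-0.09 ± 0.12) and Eefsec (0.13 ± 0.17) had small differences for their error. No gene of this list passed with C3aRA against oxy-Hb (lowest Sars, the seryl-tRNA synthetase, 0.37, adjusted p = 0.490) or with C3a against C3aRA (lowest Ncl, 0.32, adjusted p = 0.0744). In the fit without C3a replicate 2 Eif4a3 was called higher with C3a against oxy-Hb (0.34), Sars higher with C3aRA against oxy-Hb (0.37, adjusted p = 0.00294) and, with C3a against C3aRA, Ncl higher (0.28) and Sars lower (-0.26).

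Receptors for Selenop and the related endocytic receptor Lrp1 had negative values with C3a and with C3aRA, each against oxy-Hb. Of 3 tested, Lrp1 fell with C3a against oxy-Hb, at 344, 324 and 311 CPM with oxy-Hb, 169.7, 79.6 and 177 with C3a and 192, 197 and 238 with C3aRA. Its C3a libraries were all under its oxy-Hb libraries, and replicate 2 was the lowest, for a log2 fold change of -1.20 ± 0.23 (edgeR adjusted p = 0.0184). It was -0.92 in the fit without C3a replicate 2, and with transcript length and GC corrected -0.70. It lost its call without oxy-Hb replicate 1 (-1.16) or 2 (-1.20). With C3aRA against oxy-Hb it stood at -0.64, with an adjusted p of 0.518 in the fit of 9 libraries and of 8.18e-06 without C3a replicate 2, which is in neither group. Lrp8, the Selenop receptor of brain and testis, had -0.29 ± 0.12 with C3a (edgeR adjusted p = 0.142) and -0.24 ± 0.12 with C3aRA (adjusted p = 0.614). Between C3a and C3aRA Lrp8 differed by -0.06. Lrp2, at 7 to 34 counts per library, had -0.38 ± 0.54 with C3a (adjusted p = 0.704) and -0.32 ± 0.55 with C3aRA.

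Methionine sulfoxide reductases that use cysteine in place of selenocysteine were the 2 tested genes of 7 listed cysteine counterparts. Msrb2, the mitochondrial enzyme, was higher with C3a than with C3aRA (1.0 ± 0.23, adjusted p = 0.0228), at 8.11, 14.2 and 9.93 against 5.19, 5.41 and 5.49 CPM, and stood at 7.86, 8.99 and 6.96 CPM with oxy-Hb. Its value was 0.74 without C3a replicate 2, with the call lost without C3aRA replicate 1, 2 or 3 (0.98, 1.01 and 1.02). Msra stood at 0.70 ± 0.22 with C3a against oxy-Hb (edgeR adjusted p = 0.0787), and at 0.43 without C3a replicate 2 (adjusted p = 0.223). Its libraries had 5.66, 6.72 and 6.29 CPM with oxy-Hb, 8.17, 13.4 and 8.69 with C3a and 8.26, 8.11 and 8.09 with C3aRA. Neither passed with C3aRA against oxy-Hb, where Msrb2 had -0.57 (adjusted p = 0.558).

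Partners of the ER members were tested for 10 of 11 genes. With C3a against oxy-Hb 0 rose and 1 fell, Syvn1, the ubiquitin ligase HRD1 (-0.87 ± 0.22, adjusted p = 0.0416), at 19.6, 15.8 and 11.1 CPM with oxy-Hb and 7.88, 8.85 and 8.69 with C3a. Its value was -0.91 without C3a replicate 2, and it was not called when oxy-Hb replicate 1 (-0.66) or 2 (-0.85), C3a replicate 3 (-0.88) or C3aRA replicate 2 (-0.87) or 3 (-0.86) was left out. Syvn1 was also low with C3aRA, at 7.71, 11.1 and 11.3 CPM (-0.62 against oxy-Hb, edgeR adjusted p = 0.504). Between C3a and C3aRA it differed by -0.25 (adjusted p = 0.525). Ufd1, an adaptor of p97, had 0.35 ± 0.10 (adjusted p = 0.0595) and Derl2, a Derlin, 0.23 ± 0.11 (adjusted p = 0.204). Ufd1 was called without C3a replicate 2 (0.32, adjusted p = 0.0294). With C3a against C3aRA Sel1l, the partner of HRD1, was lower (-0.41 ± 0.11, adjusted p = 0.0400), at 132, 120.1 and 138 against 185, 169 and 164 CPM. Its value was -0.36 without C3a replicate 2, and its call held in the fits without C3a replicate 1 or 2 and in none of the other 7, nor with the length and GC correction (-0.27). No gene of the list passed with C3aRA against oxy-Hb, where Sel1l had the lowest p (0.34, adjusted p = 0.479). Without C3a replicate 2 Sel1l was called higher in that comparison (0.34, adjusted p = 0.0137).

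None of the calls from the fit of 9 libraries, for the 9 genes or the related lists, passed in a fit of the 2 groups compared alone. Over all genes, those fits called 99 with C3a against oxy-Hb and 118 with C3a against C3aRA, where the fit of 9 libraries called 558 and 876. Leaving out 1 oxy-Hb or C3aRA library also lowered the calls over all genes, to 54 to 322 and 53 to 575 in these comparisons.

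**Figure D4:**
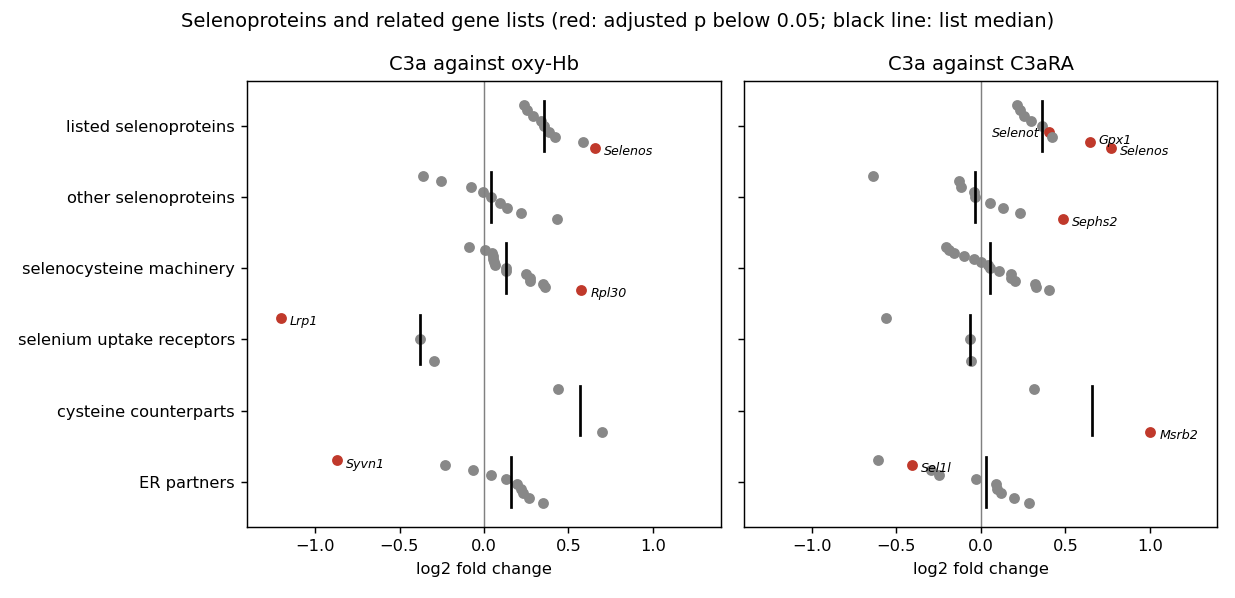
Log2 fold change of each tested gene (points) of the 9 selenoproteins and of the related lists, with C3a against oxy-Hb and against C3aRA; red points had an edgeR adjusted p below 0.05 and black lines are list medians. The 9 selenoproteins all lie right of 0, while other selenoproteins lie on both sides and Lrp1 is the lowest point at -1.20.

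The members varied together over the 9 libraries to different degrees. Over their 36 pairs, Pearson's r of log2 CPM had a median of 0.71 and ran from 0.15 to 0.95. These are descriptions over libraries that share C3a replicate 2: over the other 8 libraries the median was 0.43 and the range -0.91 (Selenok with Msrb1) to 0.95 (Selenos with Selenot). Among 10100 other genes averaging 5 CPM or more, those most like the mean of the 9 standardised genes were Emc3, a subunit of an ER membrane insertase (r = 0.987), Cd63, a tetraspanin of late endosomes (0.986), its copy Cd63-ps (0.983), 1700123O20Rik (0.980) and Cd300a, an inhibitory receptor (0.978). Without C3a replicate 2 their r was 0.92, 0.91, 0.91, 0.98 and 0.88. Cd63 and Cd63-ps can share reads, so their counts are uncertain.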

How the data were processed

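Messenger RNA was measured in 9 BV2 libraries (3 with oxy-Hb alone, 3 with added C3a, 3 with added C3aRA). Each of the 2 tables that the authors deposited holds raw read counts of 6 libraries for 22935 Ensembl genes, with coordinates and the authors' own log2 fold change, p-value and adjusted p-value. Per the labels' protocols, libraries were made from 1.3 ug of total RNA with a SMARTER mRNA-seq kit, and per the submitters' processing notes the builds were GRCm38 and mm10. Which aligner, counter, strand setting and test the authors used is not given in the sources used here. As both tables hold the same oxy-Hb counts (0 genes differed), all libraries were fitted together. Spreadsheet dates in place of 9 symbols were restored from identifiers.

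Counts were fitted with edgeR 4.0.16 in R 4.3.3 (filterByExpr with minimum count 10, TMM scaling, 1 coefficient per group, robust quasi-likelihood F test). Calls used a Benjamini-Hochberg adjusted p below 0.05 over all 14146 genes. The biological coefficient of variation was 15.8%. CPM of single genes and sums over lists are TMM-scaled, while the floor uses library totals. Transcript length, GC content (known for 99.9% of tested genes) and the selenocysteine codons came from the GENCODE annotation and transcripts of GRCm38, with 1 transcript per gene. Length and GC were corrected by splines with 5 degrees of freedom in each library. Scripts were tested on simulated data. A chi-square of counts per gene averaged 5.34 to 10.4 between replicates and 60.9 or more with C3a replicate 2, so no libraries were duplicates.

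The members and the related lists were chosen with earlier results of these data known. All 9 members are described. From each related list the text names genes called in a comparison, up to 3 genes with the lowest p and every other selenoprotein with a row, besides Secisbp2, Eefsec and the levels of Gpx4 with C3a, which were added after their values were seen. Likeness names the 5 other genes with the highest r. Alternatives were other scalings, filters, DESeq2 1.42.0, limma-voom (limma 3.58.1), fits of the 2 groups alone, a replicate block, the length and GC correction, leaving out each library and a threshold of 0.01. Fits of 2 groups, or with the correction, that also left out C3a replicate 2 were added after seeing the data.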

Additional observations from a re-analysis of the deposited data

How the results depend on the processing

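The number of members called with C3a against oxy-Hb (1) was 2 without a count filter, with DESeq2, with a replicate block, with the length and GC correction and with both, and 0 in a fit of the 2 groups alone or at an adjusted p below 0.01. Over all genes the calls in these settings were 1033, 1346, 835, 613 and 934, then 99 and 101, against 558 in the fit of 9 libraries. Against C3aRA the number of members called (3) was 0 in both of the last settings, beside 118 and 88 over all genes (876). Leaving out 1 library gave 0 to 5 members in both comparisons with C3a (54 to 1638 genes against oxy-Hb, 53 to 1827 against C3aRA). With C3aRA against oxy-Hb it gave 0 to 0 members, beside 0 to 475 genes. The median log2 fold change ran from 0.182 to 0.516 with C3a against oxy-Hb, 0.142 to 0.442 against C3aRA and -0.056 to 0.023 with C3aRA, and it was 0.086 against C3aRA with the length and GC correction and no C3a replicate 2. Called genes of the related lists (3, 0 and 3 for C3a against oxy-Hb, C3aRA against oxy-Hb and C3a against C3aRA) ran over 0 to 7, 0 to 3 and 0 to 7 with 1 library left out. They were 7 and 6 with DESeq2 in the comparisons with C3a, 1 with limma-voom against oxy-Hb, 6 without a filter against C3aRA, and 0, 3 and 0 in fits of 2 groups. At an adjusted p below 0.01 they were 0 in both comparisons with C3a. Without C3a replicate 2 they were 7 against C3aRA in fits of 2 groups, and 4 with C3aRA and 6 against C3aRA after the correction. Over all genes, calls with C3a against oxy-Hb (558) were 1033 without a filter, 1346 with DESeq2, 99 in the fit of 2 groups, 934 with correction and block, 101 at 0.01, and, without C3a replicate 2, 1101 in the fit of 2 groups and 1098 after the correction, with 54 to 1638 on leaving out 1 library. With C3aRA (0) they were 8, 19, 603 and 2 in the first 4 of these settings and 683 after the correction without C3a replicate 2, with 0 to 475. Against C3aRA (876) they were 1559 with DESeq2, 118, 1565 and 88 with 2 groups, correction and block, and 0.01, and 1938 and 1999 in the added fits, with 53 to 1827. Falls made up 77.1% of the calls with C3a against oxy-Hb, 95.1% with total count scaling, 63.6% with DESeq2 and 97.0% in the fit of 2 groups. The replicate block gave 835, 0 and 1210 calls; same-numbered libraries deviated together with r from -0.04 to 0.17 (other numbers -0.14 to 0.08), so the numbers were not taken as pairs. The cause of these differences was not tested. Members had at least 282 counts per library, while Gpx3, Selenov and Dio1, at up to 0.377 CPM, were too low to test at this depth.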
